A study of Mus musculus with 7 samples.

Results

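Sox genes encode transcription factors that bind DNA through a high-mobility-group (HMG) box and are sorted into subgroups by how alike their boxes are. The members followed here were Sox2, Sox4, Sox5, Sox6, Sox8, Sox9, Sox10, Sox11, Sox17 and Sox21, taken by gene symbol. They are 10 of the 19 Sox genes and of the 32285 genes in the feature list. Each was examined in all 7 single-cell RNA-seq libraries, in 11 cell types defined by markers, which gave 110 pairs of a member and a cell type.

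The tissue was the ventricular-subventricular zone (V-SVZ), the neurogenic wall of the lateral ventricle, dissected from mice aged P31 to P33. The 3 control libraries carry the genotype label Prdmflox/flox, with no Cre named. The paper describes its controls as littermates with both Prdm16 alleles floxed and no hGFAP-Cre. The 3 Prdm16 cKO libraries are hGFAP-Cre+/-; Prdm16flox/flox, and the 1 Prdm16-Vcam1 DKO library is hGFAP-Cre+/-; Prdm16flox/flox; Vcam1flox/flox. Cre in this transgene is active in embryonic radial glia, so their descendants (stem cells, astrocytes, ependymal cells, neuroblasts and part of the oligodendrocyte lineage) can carry the deletion, while endothelial cells and microglia arise from other sources. Each library was made from the pooled tissue of 2 to 3 male and female mice. Libraries were therefore the unit of replication, and the DKO has no replicate.

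In the V-SVZ, neural stem cells (NSCs, the type B cells) give rise to transit amplifying precursors (TAPs), which divide and form neuroblasts that migrate to the olfactory bulb. Sox2 belongs to the SoxB1 subgroup, which keeps neural progenitors undifferentiated, and Sox21 to SoxB2, which counters SoxB1. The SoxC genes Sox4 and Sox11 promote neuronal differentiation and are known for their high expression in newborn neurons. The SoxD genes Sox5 and Sox6 lack a transactivation domain and modify the action of other Sox factors. Of the SoxE genes, Sox9 acts in stem cells and astrocytes, and Sox8 and Sox10 act in the oligodendrocyte lineage. Sox17, of the SoxF subgroup, acts in endothelial cells, in arteries above all.

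After filtering, 43346 cells were kept, 1868 to 9502 per library (49.8 and 47.2% of the barcodes of cKO libraries 2 and 3 and 70.2 to 74.7% in the other 5), from libraries with 45758003 to 141353017 unique molecular identifiers (UMIs, each the count of 1 captured RNA molecule). The cells were clustered without any Sox gene among the variable features, and clusters were named from markers, here written with the ending "-like". The compared types were neuroblast- (8209 cells), NSC- (5373), oligodendrocyte- (5224), TAP- (4879), endothelial- (2779), ependymal- (2773), astrocyte- (2293), neuron- (2116), oligodendrocyte precursor cell (OPC)- (1553), mural- (1470) and microglia-like (1094) cells. Left out were erythrocyte-like (243), T cell-like (82) and 5258 cells of unnamed clusters. The unnamed cells numbered 750, 1482 and 759 in control libraries 1 to 3, 242, 252 and 1092 in cKO libraries 1 to 3 and 681 in the DKO library. The largest unnamed cluster (3139 cells, median depth 1148 UMIs) passed the NSC markers Gfap and Hes5. The part of these cells in the comparisons was not tested. Some names separate less sharply: the NSC-like cluster passed 4 of 5 NSC markers and also 6 of 7 astrocyte markers, the OPC-like cluster passed all 6 OPC markers and also 5 markers of newly formed oligodendrocytes, and 1 mural-like cluster passed all 6 endothelial markers too. Levels are given in CPM, a gene's UMIs per 1000000 of all UMIs summed over the cells of a type in a library. Cells of the same cell type are not replicates, and fewer expressing cells cannot be told apart from less RNA per cell in such a sum. Between 103 and 235 barcodes were shared by pairs of libraries processed with the same Cell Ranger version and 7 to 42 by other pairs. Of the kept cells 1080 had a shared barcode, 342 of them ependymal-like. A fit without those cells was among the alternatives, and its adjusted p is given only for the called pair. The targeted gene Prdm16 was read by its 3′ tags in NSC-like cells at 75.4, 64.2 and 69.9 CPM in the control libraries, while the cKO libraries had 55.2, 51.5 and 46.9 CPM and the DKO 57.4 CPM. In astrocyte-like cells Prdm16 was not lower, at 44.7 to 52.5 CPM in control and 47.8 to 63.1 CPM in cKO libraries. In ependymal-like cells it was lower without overlap, at 20.2 to 26.9 CPM in control, 11.3 to 16.2 CPM in cKO and 13.7 CPM in DKO libraries. Vcam1 measured 89.2 CPM in NSC-like and 182 CPM in astrocyte-like cells of the DKO library, below the control ranges of 107.9 to 156 and 310 to 409 CPM. The deleted part of the Prdm16 gene is not given in the sources used here, so these tags do not check the labels.

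The members differed in the cell types in which they were high. The highest control level of Sox2 and Sox21 was in NSC-like cells, that of Sox4 and Sox11 in neuroblast-like cells and that of Sox6, Sox8 and Sox10 in OPC-like cells. That of Sox9 was in ependymal-like cells and that of Sox17 in endothelial-like cells. That of Sox5 was also in NSC-like cells, a first place that was not firm. Since the clusters were made from the same cells, these levels are a description with no test. All errors of levels are the SD over 3 control libraries.

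**Figure D1:**
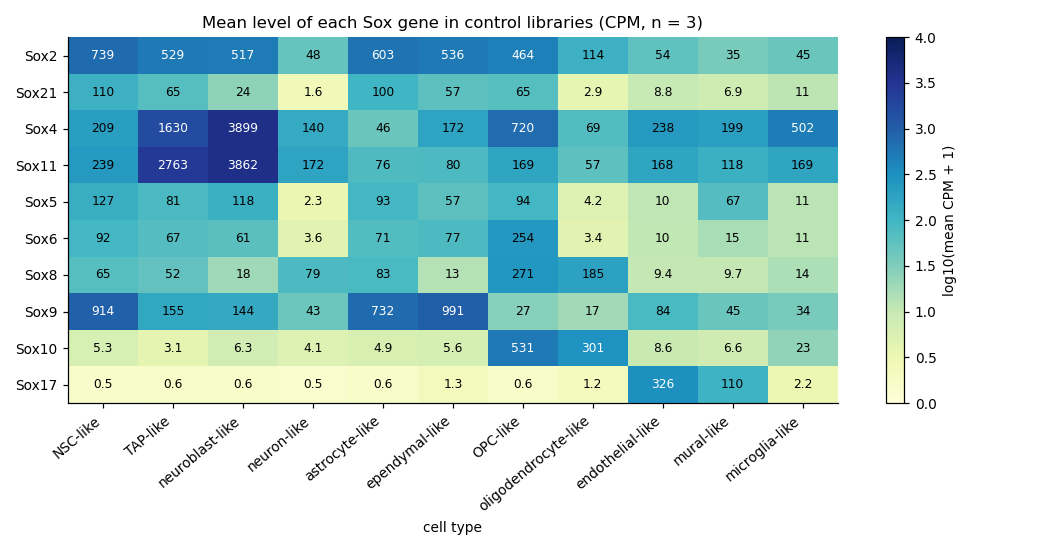
Mean level of each member (rows) in each cell type (columns) over the 3 control libraries; the number in each cell is the mean CPM and the color is log10(mean CPM + 1). Sox4 and Sox11 reach 3899 and 3862 CPM in neuroblast-like cells, while Sox10 and Sox17 are below 25 CPM outside their 2 highest types.

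Sox2 was spread over 6 neural cell types at similar levels. It measured 739 ± 71.8 CPM in NSC-like cells, 603 ± 81.2 in astrocyte-like, 536 ± 53.2 in ependymal-like, 529 ± 30.6 in TAP-like, 517 ± 58.2 in neuroblast-like and 464 ± 70.9 in OPC-like cells. The ranges of neighbours in this order overlapped. A gap then separated oligodendrocyte-like cells at 114 ± 23.8 CPM from OPC-like cells, and the ranges did not overlap there. Endothelial-like cells held 53.7 ± 17.03, neuron-like cells 48.4 ± 14.2, microglia-like cells 44.7 ± 16.4 and mural-like cells 34.9 ± 16.6 CPM. Sox2 lies on chromosome 3 (GRCm38, 34650405 to 34652461, plus strand) inside Sox2ot, a noncoding transcript on the same strand. Sox2ot had another order, led by oligodendrocyte-like (616 ± 191 CPM) and neuroblast-like cells (557 ± 101 CPM), so its counts did not follow those of Sox2.

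Sox21 was highest in NSC-like cells, at 110.4 ± 8.07 CPM, and astrocyte-like cells held 100.05 ± 9.96 CPM, with overlapping ranges. It was next at 65.4 ± 5.67 CPM in TAP-like, 65.1 ± 7.27 in OPC-like and 57.5 ± 8.41 in ependymal-like cells. It was 24.0 ± 2.59 CPM in neuroblast-like cells, with no overlap with ependymal-like cells, so the step between the SoxB genes differed: neuroblast-like cells held Sox2 1.43-fold and Sox21 4.60-fold below the highest type. Microglia-like (10.6 ± 4.22), endothelial-like (8.83 ± 3.49), mural-like (6.94 ± 4.45), oligodendrocyte-like (2.85 ± 0.537) and neuron-like cells (1.63 ± 1.22) had the lowest levels.

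The SoxC genes were the most abundant members. Sox4 measured 3899 ± 753 CPM in neuroblast-like and 1630.3 ± 263 in TAP-like cells, with no overlap between them, followed by OPC-like cells at 719.9 ± 138 and microglia-like cells at 502 ± 202. The other types held 238 ± 53.8 (endothelial-like), 209 ± 56.1 (NSC-like), 199 ± 83.3 (mural-like), 172 ± 38.0 (ependymal-like), 139.9 ± 24.97 (neuron-like), 69.3 ± 19.3 (oligodendrocyte-like) and 45.6 ± 9.92 CPM (astrocyte-like). Sox11 measured 3862 ± 445 CPM in neuroblast-like and 2763 ± 246 CPM in TAP-like cells, again with no overlap. It was 239 ± 41.6 CPM in NSC-like, 172 ± 41.3 in neuron-like, 169 ± 196 in microglia-like, 169 ± 16.7 in OPC-like, 168 ± 24.1 in endothelial-like, 118 ± 27.5 in mural-like, 79.6 ± 22.5 in ependymal-like, 76.1 ± 17.05 in astrocyte-like and 56.8 ± 15.9 CPM in oligodendrocyte-like cells. The wide SD of Sox11 in microglia-like cells came from control library 1, at 395 CPM against 56.0 and 55.7 CPM in the other two. The pair thus shared its 2 highest types and differed in the third, which was OPC-like for Sox4 and NSC-like for Sox11.

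The lower levels of Sox11 stand beside a background that is not 0. The small erythrocyte-like cluster (243 cells), which should lack neuronal transcripts, held 1232 CPM of Sox11 and 840 CPM of Sox4 in control libraries. Neuroblast- and TAP-like cells together gave 29.6 to 39.4% of all UMIs of kept cells in the control libraries, 20.5 to 30.6% in the cKO libraries and 38.9% in the DKO library. The part that free RNA or neuroblast RNA has in the low levels was not tested.

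Since Sox4 and Sox11 were high in the same types, the 250 bases before their RefSeq starts are shown. They lie on GRCm38.p6 at chr13:28953700-28953949 and chr12:27342719-27342968, both on the minus strand, and are written 5′ to 3′. The gene annotation places the Sox11 start at 27342574, so its window does not adjoin the annotated gene. Capitals mark the E-box CAGCTG, which reads the same on both strands and is a site of proneural factors.
Sox4: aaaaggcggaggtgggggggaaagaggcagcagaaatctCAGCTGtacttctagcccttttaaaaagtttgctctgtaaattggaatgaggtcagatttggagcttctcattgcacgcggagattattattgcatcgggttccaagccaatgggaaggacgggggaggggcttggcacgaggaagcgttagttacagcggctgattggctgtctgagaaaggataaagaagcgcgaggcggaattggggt
Sox11: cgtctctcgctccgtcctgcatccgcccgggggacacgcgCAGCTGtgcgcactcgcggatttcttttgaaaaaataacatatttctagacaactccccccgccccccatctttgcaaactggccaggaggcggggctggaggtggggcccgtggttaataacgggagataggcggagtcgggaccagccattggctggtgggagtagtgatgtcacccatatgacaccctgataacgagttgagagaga
Each window held 1 E-box, a motif present in 4271 of 32851 RefSeq promoters of that length (13%). Neither held the SOX core motif ACAAT. On the other strand this core reads ATTGT, and 27.7% of promoters have it in either reading. Of the 7 members with a RefSeq promoter here, Sox2, Sox8 and Sox21 held neither motif. A match of letters is a description and shows no binding.

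The SoxD genes were less abundant in their highest types than the SoxC genes. Sox5 measured 127 ± 25.03 CPM in NSC-like and 118 ± 3.99 in neuroblast-like cells, which overlapped. Then came 93.5 ± 13.9 in OPC-like, 93.0 ± 17.4 in astrocyte-like, 81.4 ± 7.85 in TAP-like, 67.0 ± 2.51 in mural-like and 57.3 ± 4.57 CPM in ependymal-like cells. It was 11.2 ± 8.46 CPM in microglia-like, 10.4 ± 2.30 in endothelial-like, 4.17 ± 1.67 in oligodendrocyte-like and 2.33 ± 2.32 in neuron-like cells. The first place of Sox5 was not firm: it passed to astrocyte-like cells in the cKO mean and to neuroblast-like cells without control library 1. It passed to OPC-like cells in the DKO library and with the marker gate, which names each cell from its own marker counts. Sox6 had a clear first place, with 254 ± 53.1 CPM in OPC-like cells. It was 92.2 ± 18.6 CPM in NSC-like, 77.0 ± 8.69 in ependymal-like, 70.9 ± 16.7 in astrocyte-like, 66.8 ± 7.63 in TAP-like and 60.7 ± 5.80 in neuroblast-like cells. In mural-like (15.1 ± 3.81), microglia-like (11.2 ± 5.24), endothelial-like (10.1 ± 3.08), neuron-like (3.64 ± 0.485) and oligodendrocyte-like cells (3.41 ± 1.33) it was low. Both SoxD genes were thus near 0 in oligodendrocyte-like cells, where the SoxE genes Sox8 and Sox10 were high.

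Among the SoxE genes, Sox9 measured 991 ± 145 CPM in ependymal-like, 914 ± 80.5 in NSC-like cells and then 732 ± 75.6 in astrocyte-like ones. The ranges of the first pair overlapped. A wide gap set these apart from TAP-like (155 ± 16.4), neuroblast-like (144 ± 12.4), endothelial-like (83.9 ± 14.9), mural-like (45.2 ± 17.7), neuron-like (43.4 ± 13.03), microglia-like (34.3 ± 14.3), OPC-like (26.7 ± 4.34) and oligodendrocyte-like cells (17.4 ± 4.34). Sox10 was the reverse, with 531 ± 126 CPM in OPC-like and 301 ± 84.0 in oligodendrocyte-like cells, then 23.2 ± 10.5 in microglia-like cells. It was 3.05 ± 1.26 to 8.56 ± 0.829 CPM in the 8 other types, from TAP-like to endothelial-like cells. Sox8 took a middle place. It measured 271 ± 4.58 CPM in OPC-like and 185 ± 1.61 in oligodendrocyte-like cells, then 83.2 ± 13.8 in astrocyte-like, 79.5 ± 6.04 in neuron-like, 64.6 ± 10.9 in NSC-like and 51.7 ± 13.3 CPM in TAP-like cells. In neuroblast-like (17.6 ± 2.91), microglia-like (14.2 ± 5.27), ependymal-like (12.5 ± 2.52), mural-like (9.74 ± 3.94) and endothelial-like cells (9.41 ± 6.19) it was low. Ependymal-like cells were thus the highest type of Sox9 and held Sox8 21.6-fold below its own highest type. With a mitochondrial share of at most 5% the first place of Sox9 passed to NSC-like cells.

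Sox17 measured 326 ± 66.0 CPM in endothelial-like cells and 109.6 ± 20.8 CPM in mural-like cells. The mural-like cells came from 2 clusters. In the one of 1129 cells Sox17 was 0.7 CPM, and in the one of 341 cells, which also passed all 6 endothelial markers, it was 237 CPM. In the other types Sox17 was 0.482 ± 0.560 to 2.17 ± 1.46 CPM, at least 150.0-fold below endothelial-like cells. The SoxF genes Sox18 (492 ± 249 CPM) and Sox7 (54.2 ± 3.70 CPM) also had their highest level in endothelial-like cells.

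Shares of cells with a UMI gave a similar picture once depth was made equal. When each cell was thinned to 2000 UMIs, Sox2 was found in 74.5 ± 2.59% of NSC-like cells (median depth 7317 UMIs) and in 4.37 ± 2.51% of microglia-like cells (4385 UMIs), which should lack it. At full depth the shares were 94.8% and 9.98%. Sox10 was found in 63.3 ± 6.88% of OPC-like cells (8326 UMIs) against 1.202 ± 0.703% of NSC-like cells. At full depth these were 84.8% and 4.49%. Sox17 was found in 44.3 ± 8.42% of endothelial-like cells (4299 UMIs) against 0.195 ± 0.0360% of NSC-like cells. At full depth these were 58.7% and 0.427%. The highest type by thinned share was also the highest by CPM for 9 of 10 members, Sox5 being first in OPC-like cells by share. Without thinning this held for 2 members, Sox6 and Sox17. TAP-like cells (median depth 16399 UMIs) then led for Sox2, Sox4, Sox5, Sox11 and Sox21, oligodendrocyte-like cells (17975 UMIs) for Sox8 and Sox10, and NSC-like cells for Sox9.

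Some pairs of members were found in the same thinned control cells about as often as the product of their separate shares. Sox2 and Sox9 were together in 59.0 ± 4.37% of NSC-like cells, against a product of 58.1%. Sox8 and Sox10 were together in 26.7 ± 8.21% of OPC-like cells, against 27.2%. A larger gap was seen for Sox4 and Sox11 in NSC-like cells, with 8.81 ± 2.11% against a product of 5.75%.

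Finer clusters (resolution 0.3) ordered the members along both lineages. From NSC-like cells through an unnamed cluster of 1407 cells with the TAP markers Egfr and Mcm2, then 2 TAP-like clusters, to neuroblast-like cells, Sox11 measured 239, 2748, 2634, 2878 and 3998 CPM in controls. Sox4 measured 209, 2014, 1401, 1693 and 4002 CPM along the same clusters, and so dipped in both TAP-like clusters where Sox11 stayed level. Sox9 went the other way, with 915, 151, 152, 171 and 130.0 CPM. Sox2 differed less along them, from 739 CPM to 455, 569, 479 and 516 CPM. The large step of Sox11 and Sox9 was thus between NSC-like cells and the next cluster.

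In the oligodendrocyte lineage, 4 clusters were compared, OPC-like, newly formed oligodendrocyte-like and 2 oligodendrocyte-like ones. Sox6 measured 352, 114, 2.07 and 2.64 CPM and Sox5 194, 23.8, 3.099 and 1.67 CPM in that order. Sox10 stayed high, at 493, 429, 309 and 297 CPM, and so did Sox8, at 272, 226, 201 and 157 CPM. Sox4 was as high in newly formed cells (583 CPM) as in OPC-like cells (521 CPM), and then 64.0 and 45.2 CPM. Sox5, Sox6 and Sox4 were therefore low in the same clusters in which Sox8 and Sox10 remained, with Sox5 low already in newly formed cells. The newly formed cluster passed 5 of its own markers and also 7 oligodendrocyte markers, so its name separates less sharply.

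**Figure D2:**
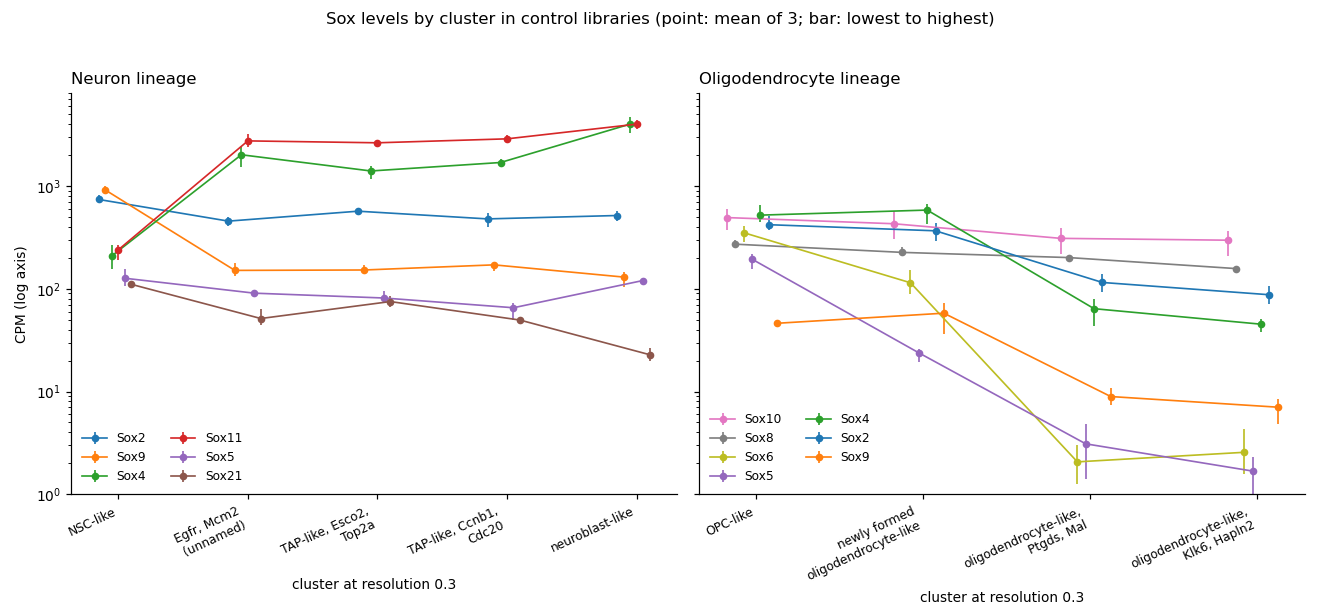
Control level in CPM (log axis) of named members in clusters at resolution 0.3, in the neuron lineage (left) and the oligodendrocyte lineage (right); points are means of 3 libraries, bars run from the lowest to the highest library, and lines join clusters as a guide. Sox11 stands at 239 CPM in NSC-like cells and at 2634 CPM or more in the next 4 clusters, and Sox6 goes from 352 to 2.07 CPM on the right while Sox10 stays above 290.

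Of 14037 genes with at least 10 CPM in at least 1 type, those whose control levels ran most alike over the 11 cell types were listed for each member, by the Pearson correlation of log2(mean CPM + 1). Sox10 ran with Gjc3, Mbp and Tmem163 (r = 0.995 to 0.988), of which Mbp encodes a myelin protein. Sox17 ran with Nostrin, Robo4 and She (0.999 to 0.998), genes of endothelial cells. Sox11 ran with Elavl2, Mex3a and Ctnnbl1 (0.977 to 0.972), of which Elavl2 encodes a neuronal RNA-binding protein. Sox4 ran with Zc3hc1, Rps26 and Pafah1b3 (0.9699 to 0.962). Sox9 ran with Tmem218, Gm30731 and Celsr1 (0.986 to 0.953), of which Celsr1 encodes a planar polarity cadherin. Sox21 ran with Gas1, E130114P18Rik and Spsb4 (0.983 to 0.940), Sox2 with Satb1, Efs and Gm4675 (0.941 to 0.938), Sox5 with Maged2, Nr2f1 and Grtp1 (0.965 to 0.932), Sox6 with Unc119, Spsb4 and Ugdh (0.948 to 0.915), and Sox8 with Erg28, Sec61a2 and Tecr (0.969 to 0.941). Gm4675 overlaps Sox21 on the opposite strand. Between members the values were highest for Sox6 and Sox21 (0.930), Sox5 and Sox6 (0.897) and Sox4 and Sox11 (0.889). The points share their libraries, and the values carry no test.

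The second question was whether Sox levels differed when Prdm16 was deleted. Of the 110 pairs, 103 passed the filter on low counts and were tested in the cKO against the control libraries with edgeR's quasi-likelihood test and Benjamini-Hochberg adjustment over all genes of a type. The 7 not tested were Sox17 in 6 types and Sox21 in neuron-like cells. Only 1 pair was called at an adjusted p under 0.05, Sox11 in astrocyte-like cells, where 1.18% of all genes tested were called and 0.198% were called as lower. Over all 11 types 0.133% of 141064 tests were called.

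Although single calls were few, the differences leaned one way. Log2 fold changes were below 0 in 80 of the 103 pairs and above 0 in 23, with a median of -0.26, while 49.8% of all tests were below 0, with a median of 0.0015. An unadjusted p under 0.05 was found in 12 pairs, all 12 lower in the cKO, against 6.12% of all tests and 2.81% lower. In 23 pairs all 3 cKO libraries were lower than each of the 3 control libraries, and in 0 pairs higher, against 7.32% and 3.85% of all tests. With CPM scaled by TMM factors (edgeR's correction for composition) these counts were 17 and 0, against 5.74% lower. Since members in a type share libraries, the pairs are not independent. Over 19 alternatives 75.3 to 84.5% of the tested pairs were below 0. The count of 12 depended on single libraries: it was 25 without cKO library 1 and 7 without control library 1, and the number of calls, 1, was 7 without cKO library 1 and 0 in other fits that left out a library. The share of all tests that met these rules in those fits is not given here. Without TMM factors 87 of 103 pairs were lower, and so were 60.3% of all tests, with the median over all genes of a type between -0.11 and -0.015.

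By cell type, the members' counts stand beside the share of all tested genes that met the same rule. In neuroblast-like cells 5 of 9 tested members were lower in every cKO library, against 8.43% of genes, and 3 had an unadjusted p under 0.05 as lower, against 3.76%. NSC-like cells had 2 of 9 (10.1% of genes) and 1 (5.29%), and TAP-like cells 2 of 10 (6.85%) and 0 (2.76%). Astrocyte-like cells had 2 of 9 (6.74%) and 1 (4.84%), and ependymal-like cells 0 of 10 (7.12%) and 1 (4.11%). In the neuron-like type 2 of 8 (5.53%) and 2 (1.19%) were counted. Oligodendrocyte-like cells had 2 of 10 (4.69%) and 1 (1.04%), and OPC-like cells 2 of 9 (10.1%) and 0 (2.31%). Among cells of other origin, endothelial-like cells had 2 of 10 (7.15%) and 1 (1.26%), mural-like cells 1 of 10 (6.37%) and 1 (1.8%), and microglia-like cells 3 of 9 (7.26%) and 1 (1.74%). Neuroblast-like cells held the most members by both counts, but the direction was at least as one-sided elsewhere. Log2 fold changes were below 0 for 9 of 9 members in microglia-like (median -0.74), 10 of 10 in endothelial-like (-0.52), 7 of 8 in neuron-like (-0.54), 7 of 10 in mural-like (-0.43), 8 of 9 in neuroblast-like (-0.40), 9 of 10 in oligodendrocyte-like (-0.33) and 7 of 9 in NSC-like cells (-0.24). They were below 0 for 6 of 10 in ependymal-like (-0.12), 6 of 10 in TAP-like (-0.078), 6 of 9 in astrocyte-like (-0.071) and 5 of 9 in OPC-like cells (-0.015). On TMM-scaled CPM the members lower in every cKO library were 0 in TAP-like (5.89% of genes) and OPC-like cells (5.89%). They were 1 in oligodendrocyte-like (3.52%) and astrocyte-like cells (7.35%), 2 in microglia-like (4.95%) and 3 in NSC-like cells (8.21%). The other types kept their counts, beside 6.78% of genes in neuroblast-, 4.18% in endothelial-, 6.97% in ependymal-, 4.09% in neuron- and 4.65% in mural-like cells. Sox8 in oligodendrocyte-like and OPC-like, Sox9 in OPC-like and Sox10 in microglia-like cells were among those that overlapped on that scale. After adjustment the share of genes called was 0.0144% in neuroblast-, 0.146% in NSC-, 0.144% in ependymal- and 0.00775% in neuron-like cells and 0% in the 6 other types besides astrocyte-like cells, with 0 members called by edgeR in any of these 10.

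The measured lean was larger where a member was scarce, without a test of that contrast. In the 47 pairs at 10% or more of a member's highest type, 34 were lower, the median was -0.13 and 5 had an unadjusted p under 0.05. In the 56 pairs below 10%, 46 were lower, the median was -0.51 and 7 had an unadjusted p under 0.05. The 1 called pair was among these 56. Over all tests 49.8% were lower and 6.12% had an unadjusted p under 0.05, but these shares were not split by level. Whether other genes of a like level leaned as much was therefore not examined. By member, the median log2 fold change ran from -0.76 for Sox11 (lower in 10 of 11 types) to 0.11 for Sox10 (lower in 4 of 11). Sox2 was lower in 11 of 11 types, by 0.0080 to 0.55.

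**Figure D3:**
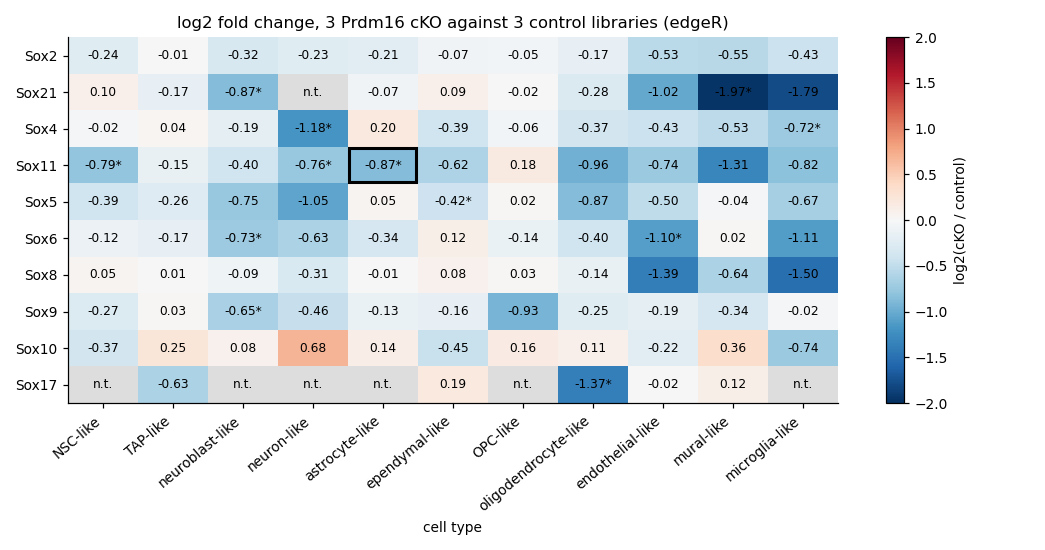
Log2 fold change (color and number) of each member (rows) in each cell type (columns), 3 cKO against 3 control libraries in edgeR; a star marks an unadjusted p under 0.05, the box marks the 1 pair called after adjustment and n.t. marks pairs not tested. Blue cells (80) outnumber red cells (23), and all 12 stars are on blue cells.

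**Figure D4:**
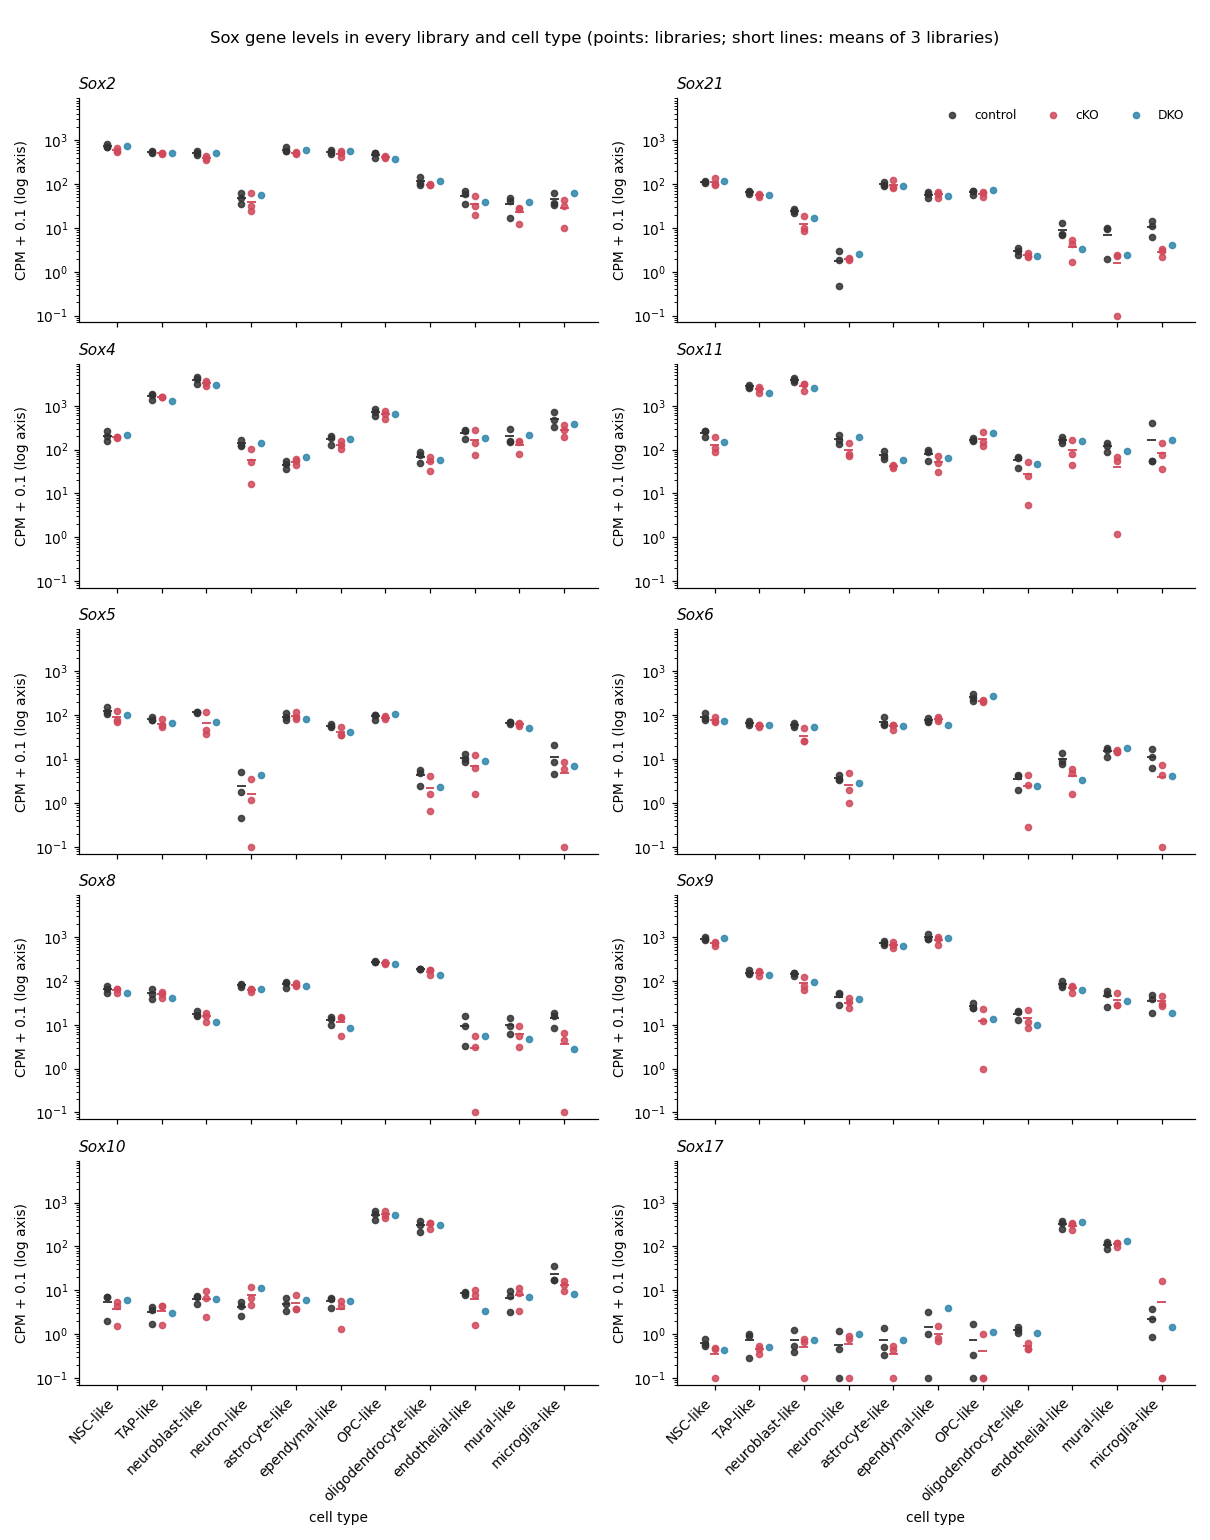
Level of each member in each cell type and library, in CPM + 0.1 on a log axis; points are libraries, short lines the means of 3. Sox11 in astrocyte-like cells is below 45 CPM in all 3 cKO libraries and above 62 CPM in all 3 control libraries, with the DKO library at 59.0 CPM.

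Sox11 in astrocyte-like cells measured 70.5, 62.6 and 95.3 CPM in control libraries 1 to 3, 44.2, 43.0 and 38.9 CPM in cKO libraries 1 to 3, and 59.0 CPM in the DKO library. The groups did not overlap, and the DKO library lay between them. The log2 fold change was -0.87 (SE 0.20), with an adjusted p of 0.0431 in edgeR. The call is near the threshold: it was lost in 10 of 19 alternatives, with adjusted p values over all of them of 0.00043 to 0.212, and was lost when any 1 control library, cKO library 2 or cKO library 3 was left out. The direction was the same in all 19, with log2 fold changes of -1.01 to -0.61. Without shared barcodes the adjusted p was 0.0489.

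This level was low. Astrocyte-like cells ranked the 10th of 11 types for Sox11, 50.7-fold below neuroblast-like cells. All 6 neuroblast markers (Dcx, Stmn2, Tubb3, Dlx1, Dlx2 and Cd24a) were also lower in the cKO mean there, and none was at 0. Their summed level was 45.3 to 77.2 CPM in the control and 22.8 to 58.4 CPM in the cKO libraries, which overlapped, and 81.4 CPM in the DKO library. Sox4, which accompanies Sox11 in neuroblasts, was not lower: it measured 45.8, 35.6 and 55.4 CPM in control, 43.8, 54.8 and 59.4 CPM in cKO and 67.2 CPM in DKO libraries (log2 fold change 0.20, SE 0.21, adjusted p = 0.818 in edgeR). The 7 astrocyte markers summed to 4471 to 4817 CPM in control and 5323 to 5570 CPM in cKO astrocyte-like cells, without overlap, although 4 of the 7 were lower in the cKO mean. Their part in the Sox11 result was not tested.

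In NSC-like cells, Sox11 measured 261, 265 and 191 CPM in control, 192, 111 and 86.9 CPM in cKO and 151 CPM in the DKO libraries. On this scale cKO library 1 reached the lowest control library, and cKO libraries 2 and 3 were well below. With TMM-scaled CPM the groups did not overlap. The log2 fold change was -0.79 (SE 0.25) with an adjusted p of 0.196 in edgeR, so it was not called, among 0.146% of genes called in this type. It was called by DESeq2 (adjusted p = 0.0370), without the filter on low counts (0.0234), with the replicate number as a block (0.0337) and without cKO library 1 (0.00048). The share of all genes called in those fits is not given here. The neuroblast markers summed to 91.1 to 131.9 CPM in control and 53.3 to 104.1 CPM in cKO NSC-like cells. The astrocyte markers summed to 1529 to 1610 CPM in control and 1709 to 2309 CPM in cKO NSC-like cells, although 4 of the 7 were lower in the cKO mean. The part of either list in the Sox11 difference was not tested. By library the neuroblast marker sums in the cKO were 78.8, 53.3 and 104.1 CPM, so that cKO libraries 1 and 2 lay below all controls and cKO library 3 among them, and 6 of 6 markers were lower in the cKO mean.

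Where Sox11 was most abundant, the measured difference was smaller, though differences between types were not tested. In neuroblast-like cells it measured 4276, 3919 and 3392 CPM in control, 3143, 3078 and 2156 CPM in cKO and 2505 CPM in DKO libraries (log2 fold change -0.40, SE 0.21, adjusted p = 0.614 in edgeR). These groups did not overlap. In TAP-like cells the difference was -0.15 (SE 0.18) and the groups overlapped. Larger differences were measured in types with low levels, except in OPC-like cells, where Sox11 was higher in the cKO by 0.18 (SE 0.23). In neuron-like cells Sox11 measured 217, 136 and 164 CPM against 143, 69.8 and 79.9 CPM, with 192 CPM in the DKO (-0.76, SE 0.28, adjusted p = 1.000 in edgeR), and cKO library 1 lay above control library 2. In mural-like cells it measured 142, 124 and 88.1 CPM against 54.3, 1.11 and 67.7 CPM, with 94.0 CPM in the DKO (-1.31, SE 0.80, adjusted p = 0.999 in edgeR). The 6 neuroblast markers were all lower in the cKO mean of mural-like cells, with sums of 322, 367 and 234 CPM in control, 151, 37.8 and 143 CPM in cKO and 205 CPM in DKO libraries, which did not overlap, and their part was not tested. Sox11 in cKO library 2 alone was near 0, and it was also the lowest in oligodendrocyte-like cells, with 5.36 CPM against 25.1 CPM or more elsewhere.

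**Figure D5:**
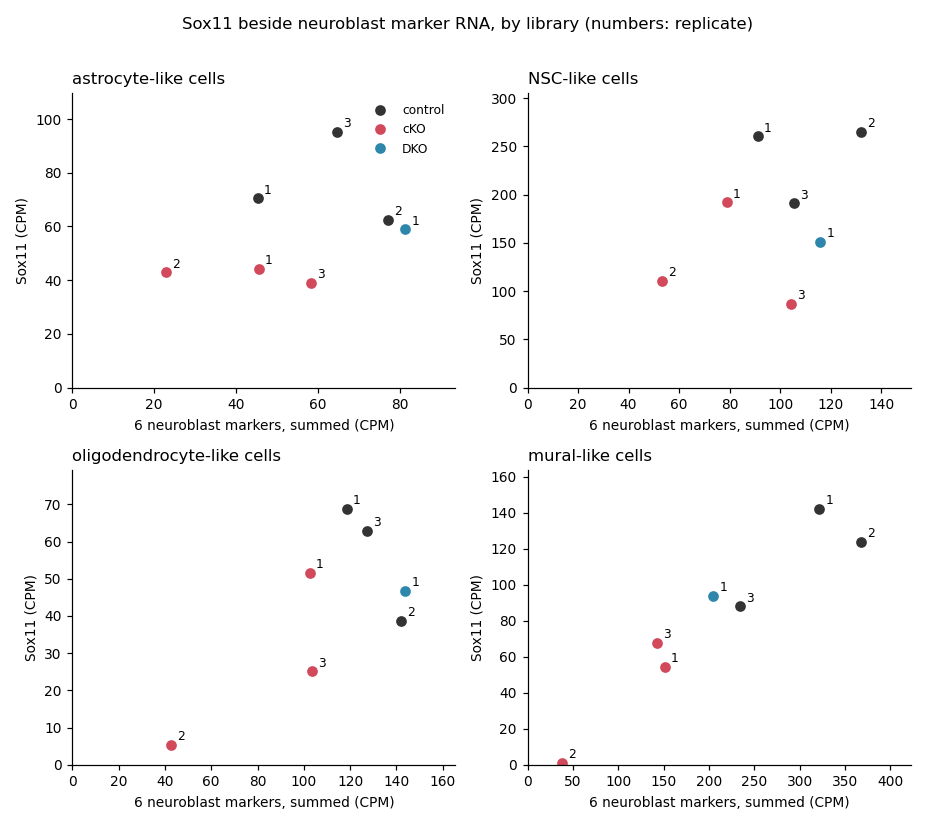
Sox11 (vertical axis, CPM) beside the summed level of 6 neuroblast markers (horizontal axis, CPM) in 4 cell types; each point is a library, numbered by replicate. In astrocyte-like cells the cKO points (38.9 to 44.2 CPM of Sox11) lie below all control points while the marker sums of both groups overlap, while in mural-like cells the cKO marker sums (37.8 to 151 CPM) lie below all control sums (234 to 367 CPM) and cKO library 2 stands at 1.11 CPM of Sox11.

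Sox4 gave 2 pairs with an unadjusted p under 0.05, both outside its main types. In neuron-like cells it measured 168, 121 and 130.1 CPM in control, 105, 16.5 and 52.8 CPM in cKO and 139 CPM in DKO libraries (log2 fold change -1.18, SE 0.47, adjusted p = 1.000 in edgeR). The groups did not overlap. Without the filter on low counts the pair was called (adjusted p = 0.0180 in edgeR), with no share of all genes beside the call. In microglia-like cells it measured 721, 462 and 323 CPM against 368, 192 and 282 CPM, with 382 CPM in the DKO (-0.72, SE 0.28, adjusted p = 1.000 in edgeR), and the groups overlapped. The neuroblast markers in neuron-like cells summed to 557 to 644 CPM in control and 393 to 569.5 CPM in cKO libraries, and in microglia-like cells to 133 to 396 CPM and 67.2 to 280 CPM. In both types 6 of 6 were lower in the cKO mean and the sums overlapped, and their part was not tested. Of the sum in control neuron-like cells, Tubb3 gave a mean of 301 CPM and Stmn2 187 CPM. In neuroblast-, TAP- and NSC-like cells the Sox4 differences were -0.19, 0.04 and -0.02, each within its SE or close to it.

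Neuroblast-like cells held 3 of the 12 pairs with an unadjusted p under 0.05, where 8.69% of all genes had one and 3.76% had one as lower. These were Sox6, Sox9 and Sox21. Sox9 measured 154, 147 and 130.0 CPM in control, 122, 77.6 and 61.1 CPM in cKO and 95.9 CPM in DKO libraries (log2 fold change -0.65, SE 0.22, adjusted p = 0.515 in edgeR). Sox6 measured 66.2, 54.7 and 61.1 CPM against 51.5, 25.3 and 26.3 CPM, with 54.7 CPM in the DKO (-0.73, SE 0.25, adjusted p = 0.515 in edgeR). Sox21 measured 21.2, 26.3 and 24.4 CPM against 18.9, 9.90 and 8.54 CPM, with 17.002 CPM in the DKO (-0.87, SE 0.28, adjusted p = 0.502 in edgeR). In all 3 the groups did not overlap, and cKO library 1 was nearest to the controls. cKO libraries 2 and 3, which were lower, are also the libraries that kept the smallest share of barcodes, and the part of this in the differences was not tested. The type joins clusters of 8040 and 169 cells. The small one, which also passed 3 astrocyte markers, held 483 CPM of Sox9 in control libraries. In the large cluster alone Sox9 measured 140.1, 143.4 and 101.4 CPM against 111.3, 76.6 and 47.6 CPM and overlapped, whereas Sox6 and Sox21 did not.

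Sox2 and Sox5 were also lower in the cKO mean of neuroblast-like cells, Sox2 without overlap and Sox5 with it. Sox2 measured 573, 520.2 and 457 CPM in control, 442, 394 and 346 CPM in cKO and 512 CPM in DKO libraries (log2 fold change -0.32, SE 0.17, adjusted p = 0.611 in edgeR). Sox5 measured 121, 119 and 114 CPM against 116, 36.4 and 45.6 CPM, so that cKO library 1 lay among the controls (-0.75, SE 0.43, adjusted p = 0.645 in edgeR). Some alternatives called members in this type, but the share of all genes called in those fits is not given here. Without cKO library 1, Sox5, Sox6, Sox9 and Sox21 were called in neuroblast-like cells, with adjusted p values of 0.00097, 0.00417, 0.00913 and 0.0118 in edgeR. Without the filter on low counts and with all libraries, Sox6, Sox9 and Sox21 were called there as well (adjusted p = 0.00443, 0.0151 and 0.01405 in edgeR). Markers of TAPs moved with these genes: 7 of the 8 were lower in the cKO mean of neuroblast-like cells, none was at 0, and their sum was 110.01 to 133 CPM in control, 98.5, 45.1 and 43.2 CPM in cKO libraries 1 to 3 and 92.6 CPM in the DKO library. In control libraries Sox21 was higher in TAP- than in neuroblast-like cells (65.4 against 24.0 CPM), Sox9 (155 against 144 CPM) and Sox6 (66.8 against 60.7 CPM) had overlapping ranges, and Sox5 was lower (81.4 against 118 CPM). The part of TAP-like RNA in the differences was not tested.

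In NSC-like cells, Sox2 and Sox9 were lower in every cKO library by a small amount. Sox2 measured 822, 694 and 701 CPM in control, 663, 537 and 557 CPM in cKO and 747 CPM in DKO libraries (log2 fold change -0.24, SE 0.18, adjusted p = 0.613 in edgeR). Sox9 measured 1005, 886 and 851 CPM against 736, 786 and 620.0 CPM, with 938 CPM in the DKO (-0.27, SE 0.18, adjusted p = 0.568 in edgeR). Neither passed even an unadjusted p of 0.05, and the DKO library was within the control range for both. For this type 10.1% of all genes were lower in every cKO library. Sox2 in astrocyte-like cells was also lower in each, with 697, 562 and 551 CPM against 541, 514 and 489 CPM and 591 CPM in the DKO (-0.21, SE 0.18, adjusted p = 0.768 in edgeR), but with TMM-scaled CPM these groups overlapped. Sox21 did not follow Sox2 in NSC-like cells, with a difference of 0.10 (SE 0.17).

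In the oligodendrocyte lineage no member was called and 0 genes in all were called in oligodendrocyte-like cells by edgeR, where 1.77% had an unadjusted p under 0.05. Sox8 in OPC-like cells measured 276, 269 and 268 CPM in control, 264, 243 and 257 CPM in cKO and 242 CPM in DKO libraries. These CPM did not overlap, yet with TMM factors the log2 fold change was 0.03 (SE 0.17, adjusted p = 0.997 in edgeR), and without them -0.09. Sox8 in oligodendrocyte-like cells measured 186, 187 and 184 CPM against 175, 135 and 174 CPM, with 139 CPM in the DKO (-0.14, SE 0.14, adjusted p = 0.999 in edgeR). Sox10 was within 0.16 of 0 in both types on the log2 scale. Sox9 in OPC-like cells measured 24.5, 23.8 and 31.7 CPM against 22.3, 0.892 and 12.3 CPM, with 13.1 CPM in the DKO (-0.93, SE 0.56, adjusted p = 0.953 in edgeR), so that cKO library 2 was again near 0. Of 7 astrocyte markers 6 were lower in the cKO mean of OPC-like cells, with overlapping sums of 59.1 to 135 CPM in control and 64.3 to 102.6 CPM in cKO libraries, and their part was not tested. Sox17 in oligodendrocyte-like cells, at 0.991, 1.39 and 1.14 CPM against 0.364, 0.370 and 0.543 CPM, with 0.974 CPM in the DKO, is at the level of a background (-1.37, SE 0.52, adjusted p = 0.999 in edgeR). All 6 endothelial markers were lower there in the cKO mean, with overlapping sums of 53.6, 32.5 and 92.5 CPM in control and 28.1, 20.9 and 44.8 CPM in cKO libraries, and their part was not tested.

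The remaining pairs with their values in full were of low or moderate levels. Sox5 in ependymal-like cells measured 56.7, 53.1 and 62.1 CPM in control, 54.8, 35.6 and 34.9 CPM in cKO and 40.4 CPM in DKO libraries, overlapping (log2 fold change -0.42, SE 0.18, adjusted p = 0.514 in edgeR). All 4 choroid plexus markers were lower there in the cKO mean (sums of 2467, 2401 and 513 CPM in control, 658, 149.6 and 143 CPM in cKO and 3222 CPM in DKO libraries), and so were all 6 neuroblast markers (784 to 986 against 596 to 803 CPM). Of the neuroblast marker sum, Cd24a alone gave a control mean of 766 CPM, beside 827 CPM in neuroblast-like cells, so the sum is not specific to neuroblasts. The part of either list was not tested. Sox6 in TAP-like cells measured 74.4, 59.1 and 66.9 CPM against 58.8, 58.3 and 52.6 CPM, with 59.6 CPM in the DKO (-0.17, SE 0.13, adjusted p = 0.828 in edgeR). Sox21 in TAP-like cells measured 66.1, 70.7 and 59.4 CPM against 57.5, 59.1 and 49.8 CPM, with 55.3 CPM in the DKO (-0.17, SE 0.13, adjusted p = 0.834 in edgeR). In both the CPM did not overlap by a narrow margin, and the TMM-scaled CPM overlapped. Markers of other types differed in TAP-like cells too. The 5 NSC markers summed to 376 to 506 CPM in control and 623 to 1004 CPM in cKO libraries. Even so, 3 of the 5 were lower in the cKO mean. The 6 neuroblast markers, all lower in the cKO mean, summed to 2084 to 2714 and 1406 to 2254 CPM. The part of either list was not tested. Sox8 in neuron-like cells measured 80.2, 85.1 and 73.1 CPM against 65.9, 63.4 and 56.9 CPM, with 65.6 CPM in the DKO (-0.31, SE 0.20, adjusted p = 1.000 in edgeR). Sox6 in endothelial-like cells measured 13.5, 7.64 and 9.01 CPM against 5.99, 1.54 and 4.77 CPM, with 3.20 CPM in the DKO (-1.10, SE 0.46, adjusted p = 1.000 in edgeR). These 2 pairs stayed apart on both scales. All 6 OPC markers were lower in the cKO mean of endothelial-like cells, with sums of 43.3, 20.4 and 24.4 CPM in control and 10.2, 13.1 and 16.9 CPM in cKO libraries, which did not overlap, and their part in the Sox6 difference was not tested. Sox21 in mural-like cells measured 9.28, 1.81 and 9.74 CPM against 2.20, 0 and 2.29 CPM, with 2.34 CPM in the DKO, overlapping (-1.97, SE 0.78, adjusted p = 0.999 in edgeR). Sox10 in microglia-like cells measured 17.5, 35.2 and 16.8 CPM against 13.3, 15.999 and 9.36 CPM, with 8.03 CPM in the DKO (-0.74, SE 0.43, adjusted p = 1.000 in edgeR). All 6 OPC markers were lower there in the cKO mean, with sums of 7.37, 323 and 29.0 CPM in control and 7.36, 0 and 7.28 CPM in cKO libraries, and control library 2 was the highest for both. All 7 oligodendrocyte markers were lower too, with overlapping sums of 1136 to 6094 CPM in control and 694 to 4680 CPM in cKO libraries. The part of either list was not tested. An exact two-sided permutation test of the CPM gave p = 0.1 for each pair whose groups did not overlap, the smallest that 3 against 3 libraries allow.

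The single DKO library gives no test. It lay within the control range in 60 of the 110 pairs, below it in 43 and above it in 7. Against the cKO range it was within in 61, above in 38 and below in 11. These counts use CPM without TMM factors, and the matching shares of all genes are not given here. Whether the DKO library differed in the same way for other genes was therefore not examined. For Sox2 and Sox9 in NSC-like cells the DKO library was within the control range. For Sox11 in NSC- and astrocyte-like cells it was between the groups or, in NSC-like cells, within the cKO range.

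The other Sox genes and partner genes of the family were examined as lists, and 0 were called by edgeR in any type. Of their 404 tests, 50 had an unadjusted p under 0.05 as lower in the cKO and 9 as higher, where 2.81% of all tests had one as lower and 6.12% in either direction. The alternatives gave 6 calls with DESeq2, 18 without the filter on low counts and 26 without cKO library 1, and the share of all genes called there is not given. Of the 9 other Sox genes, Sox1, a SoxB1 gene high in neuroblast-like (279 ± 58.3 CPM) and NSC-like cells (196 ± 27.3 CPM), was 123 ± 29.8 CPM in cKO NSC-like cells (log2 fold change -0.57, SE 0.18, adjusted p = 0.173 in edgeR). Sox13, a SoxD gene, was 15.9 ± 1.67 against 20.0 ± 4.30 CPM there (0.41, adjusted p = 0.416). Among POU partners, which bind DNA beside SoxB1 and SoxC factors, Pou3f2 was 422 ± 44.1 against 269 ± 76.3 CPM (-0.57, SE 0.20, adjusted p = 0.245) and Pou3f3 305 ± 12.2 against 337 ± 45.8 CPM (0.23, adjusted p = 0.616). Of the overlapping transcripts, Sox1ot was 188 ± 27.0 against 111 ± 59.2 CPM and Sox2ot 186 ± 79.9 against 158 ± 6.28 CPM (adjusted p = 0.417 and 0.862).

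Of the stem cell partners, Chd7, a chromatin remodeler that acts with Sox2, was 99.5 ± 14.9 against 59.9 ± 10.0 CPM in NSC-like cells (log2 fold change -0.63, SE 0.16, adjusted p = 0.0998 in edgeR) and Pax6 128 ± 12.2 against 69.3 ± 26.0 CPM (-0.80, SE 0.23, adjusted p = 0.145). Of the SoxC targets, Tubb3 was 24.0 ± 7.58 against 14.8 ± 3.70 CPM (adjusted p = 0.419), but Stmn1 went the other way, with 432 ± 41.7 against 586 ± 43.4 CPM (0.54, SE 0.18, adjusted p = 0.200). Of the oligodendrocyte partners of SoxE, Olig1 was 25.3 ± 5.87 against 11.05 ± 4.89 CPM and Cnp 199 ± 13.7 against 126 ± 30.9 CPM (adjusted p = 0.146 and 0.2202). Of the endothelial partners of SoxF, Notch1 was 296 ± 19.2 against 231 ± 27.4 CPM and Erg 2.14 ± 0.696 against 0.956 ± 0.709 CPM (adjusted p = 0.491 and 0.510). Over the 11 types, the stem cell partners were below 0 on the log2 scale in 75 of 97 tests (median -0.18), the SoxE partners in 67 of 93 (-0.22), the SoxC targets in 46 of 64 (-0.21), the POU partners in 29 of 43 (-0.23), the other Sox genes in 30 of 48 (-0.15), the overlapping transcripts in 15 of 24 (-0.11) and the SoxF partners in 19 of 35 (-0.030), where all tests had 49.8% below 0. An unadjusted p under 0.05 was found as lower in 19 of the 97 tests of stem cell partners, and as higher in 2, beside the 2.81% of all tests that were lower.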

How the data were processed

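Single-cell RNA-seq (10x Genomics 3′ v3.1) of the V-SVZ was taken from the deposited matrices, which hold raw UMI counts per gene and barcode. Per the file headers, the authors ran Cell Ranger, version 6.0.1 for replicates 1 and 2 of control and cKO and 6.1.1 for the remaining 3 libraries; it counts each UMI once, keeps only barcodes it calls cells and does not normalize. The submitters' processing notes name mm10. Cells with 500 to 7000 genes and at most 10% mitochondrial counts were kept. They were integrated in Seurat 5.3.0 (2000 variable features without Sox genes, 30 components, resolution 0.15). The naming rule was settled after the clusters were seen. It asked for at least 3 markers and a share over 0.5 of a type's markers. Each had to be found in at least 10% of the cells, at a log2 fold of at least 1 over other cells. Among types that passed, the one with most markers in the cluster's top 10 genes gave the name. Shallow clusters with none of the type's markers there stayed unnamed. Doublet calls from Scrublet (scanpy 1.11.5) were kept in, and left out in an alternative.

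For each cell type, counts were added up within a library and tested in edgeR 4.0.16 (robust quasi-likelihood, filterByExpr, TMM, 1 fit of all 7 libraries with 3 groups, Benjamini-Hochberg, threshold 0.05). Where nothing in the labels ties libraries to separate litters or days, p-values measure only the spread between these libraries. The test was tried first on simulated counts with known changes. The members and lists were chosen with earlier results of these data known. Members were named in all types; a pair was given in full where it was called, had an unadjusted p under 0.05, or had no overlap between groups at a mean of at least 10 CPM. Of each list, the 2 genes with the smallest p in NSC-like cells were named. Thinning drew 2000 UMIs per cell and left out 4734 control, 2359 cKO and 1094 DKO cells. Libraries of the same group differed beyond sampling noise. Same-numbered libraries share no stated origin; they deviated together in all 3 pairs in oligodendrocyte- (r = 0.31, 0.15 and 0.47), endothelial- (0.19, 0.13 and 0.38) and mural-like cells (0.27, 0.14 and 0.39). Promoter sequences are from RefSeq (GRCm38.p6); 7 of 10 members matched. Cell Ranger counts reads by strand, but Sox2 and Sox5 overlap genes of the same strand, and such reads may be split.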

Additional observations from a re-analysis of the deposited data

How the results depend on the processing

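The 25 pairs given in full kept their direction under up to 19 alternatives, except Sox8 in OPC-like cells (0.025 on the log2 scale), which was -0.090 without TMM factors and -0.0013 to 0.058 with 1 library left out (the lowest without cKO library 1). The number of pairs called, 1, was 2 with DESeq2 and with the replicate block, 6 without the filter on low counts and 0 without the DKO library, with a mitochondrial share of at most 5%, without integration, with the marker gate and with sums thinned to equal totals, and 0 to 7 with 1 library left out. The 7 were reached without cKO library 1. Partner genes called, 0, were 6 with DESeq2, 18 without the filter, 1 with Cell Ranger version as a block, 9 with the replicate block and 1 with the marker gate, and 0 to 26 with 1 library left out, 26 being without cKO library 1. Pairs with an unadjusted p under 0.05, 12, were 23 without the filter, 24 with the replicate block and 7 to 25 with 1 library left out, 7 without control library 1 and 25 without cKO library 1. The highest cell type was the same for 9 to 10 members with 1 library left out. With the marker gate that of Sox5 passed to OPC-like cells. The highest type by share of cells was that by CPM for 2 members at full depth and 9 after thinning. The causes of these changes were not tested. For the alternatives, the shares of all genes that were called or had an unadjusted p under 0.05 are not given here. Numbers pairing the libraries are not stated in the labels. With the replicate block Sox11 was called in astrocyte- and NSC-like cells, and no member was called in the types where same-numbered libraries deviated together. Without integration NSC-like cells could not be fitted. The removal of cells with shared barcodes was chosen after seeing the data. Of all libraries cKO library 2 held the fewest cells, 47 of the microglia-like to 351 of the neuroblast-like type.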

Other observations

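Clusters outside the compared types or small within them also held Sox transcripts. At resolution 0.3, an unnamed cluster of 252 cells led by Neurod1, Eomes and Tbr1 held the highest control level of Sox11, 5183 CPM, with 3331 CPM of Sox4, 170 CPM of Sox5 and 0 CPM of Sox8, Sox10 and Sox21. A small neuroblast-like cluster of 175 cells, which also passed 3 astrocyte markers, held 472 CPM of Sox9, against 130.0 CPM in the large neuroblast-like cluster. A cluster of 1111 cells (median depth 1386 UMIs) that passed 3 fibroblast markers held 134 CPM of Sox9 and 313 CPM of Sox4. Its name as fibroblast-like is not firm. The marker gate named only 138 cells fibroblasts, and without integration the fibroblast-like cluster held 127 cells.

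Among the Sox genes outside the 10, Sox12, the third SoxC gene, was 80.9 ± 14.2 CPM (SD, n = 3 control libraries) in neuroblast-like and 70.0 ± 11.6 CPM in TAP-like cells, and so followed Sox4 and Sox11 in order at a level far below. Sox3, of SoxB1, was highest in OPC-like cells (47.4 ± 17.1 CPM), which were the highest type of neither Sox1 nor Sox2. Sox14, Sox15 and Sox30 were below 1 CPM in every type of the control libraries.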
